A study of Mus musculus with 4 samples.

Results

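Polycomb repressive complex 1 (PRC1) was followed through the RNA of 10 of its subunit genes, *Ring1*, *Rnf2*, *Rybp*, *Pcgf3*, *Pcgf5*, *Pcgf6*, *Kdm2b*, *Cbx2*, *Cbx7* and *Phc1*. They were chosen by name from the 37310 genes of the count table, and all 10 were present in it. RNA-seq libraries came from HATX mouse embryonic stem cells (mESCs), either wild-type (WT) or clone 2 of a *Spen* knockout (KO), with 2 libraries in each group. Spen is a large RNA-binding protein that recruits repressors to *Xist* RNA. Both lines have a mixed genomic background, carry a doxycycline-inducible *Xist* transgene, are described by the study as haploid, and were grown in serum and LIF on gelatin. No treatment is given for any library. The KO group is 1 clone, so differences between clones and effects of the deletion cannot be told apart, and the labels do not say whether the 2 libraries of a group came from separate cultures. The p-values below therefore measure only the spread between these libraries, which may be technical.

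PRC1 is an E3 ligase that places ubiquitin on a lysine of histone H2A, a mark of repressed chromatin. Every form of the complex holds a RING1 catalytic subunit and a PCGF subunit. Canonical forms add a CBX protein, which reads the histone H3 methylation left by Polycomb repressive complex 2 (PRC2), and a PHC protein, which compacts chromatin. Variant forms carry RYBP or its paralogue YAF2 instead and are named for their PCGF subunit, as in PRC1.1 with KDM2B or PRC1.6 with PCGF6. In mESCs these complexes keep developmental and germline genes low, and during X inactivation *Xist* RNA brings the PCGF3 and PCGF5 forms to the chromosome.

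Depth ran from 36667685 to 43835004 total counts in WT and from 54715889 to 61908422 in the libraries labelled KO. Normalized counts below are counts divided by the DESeq2 size factor of the library, and gene coordinates are those of mm9. *Spen* itself had more counts in the KO-labelled libraries, with normalized counts of 7797 and 6242 against 3716 and 3047 in WT, so its count over the whole gene does not check the label. Markers of mESCs were high in every library: *Pou5f1* ranged from 35210.0 to 40980.5 normalized counts and *Nanog* from 42237 to 49531, although close copies of 22.4% and 70.3% of their exonic bases leave these counts uncertain. Of 7 such markers 2 rose, where 16.4% of all genes tested rose and 15.8% fell: *Dppa5a* (log2 fold change 0.28 ± 0.067, DESeq2 adjusted p = 0.000177) and *Zfp42* (0.23 ± 0.080, 0.0149), with copies of 98.2% and 69.9%. *Zfp42* was lost when any 1 library was left out (0.118 to 0.167), and both were lost with chromosome medians removed (0.0835 and 0.255). Fibroblast markers summed to 172 and 194 in WT and 421 and 484 in the KO-labelled libraries over 7 genes, and of the 4 with an adjusted p 1 (*Thy1*) rose. *Thy1* made up most of that sum, *Col1a1* had 27.8 and 21.8 in WT against 49.6 and 47.7, and the other 5 had at most 13.3 in any library. *Twist2* and *Lum* were at 0 in both KO-labelled libraries and in 1 WT library each. Primitive endoderm markers summed to 1758 to 2176 in WT and 809 to 888 in the KO-labelled libraries over 7 genes, none of them at 0, and of the 6 with an adjusted p 3 (*Gata4*, *Sox7* and *Col4a1*) fell. The part of these markers in the results below was not tested. In bulk RNA, fewer cells of a type and less RNA per cell cannot be told apart.

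*Pcgf6* rose and *Cbx7* fell with the smallest adjusted p-values of the 10 subunit genes, and their promoters are shown for that reason. RefSeq (build GRCm38.p6) gave promoter windows of 300 bases, lying mostly upstream of the transcription start, for 8 of the 10 genes, the exceptions being *Rybp* and *Cbx2*. The letters below run 5′ to 3′ on the strand of the gene, and capitals mark CpG dinucleotides.
*Pcgf6* promoter, chr19:47050857-47051156, - strand: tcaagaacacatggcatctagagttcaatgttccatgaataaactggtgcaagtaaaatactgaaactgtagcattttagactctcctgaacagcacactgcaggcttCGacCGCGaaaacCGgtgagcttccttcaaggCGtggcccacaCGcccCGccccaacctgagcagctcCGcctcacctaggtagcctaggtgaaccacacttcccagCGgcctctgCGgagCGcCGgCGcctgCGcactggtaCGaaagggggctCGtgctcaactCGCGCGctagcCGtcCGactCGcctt
*Cbx7* promoter, chr15:79932597-79932896, - strand: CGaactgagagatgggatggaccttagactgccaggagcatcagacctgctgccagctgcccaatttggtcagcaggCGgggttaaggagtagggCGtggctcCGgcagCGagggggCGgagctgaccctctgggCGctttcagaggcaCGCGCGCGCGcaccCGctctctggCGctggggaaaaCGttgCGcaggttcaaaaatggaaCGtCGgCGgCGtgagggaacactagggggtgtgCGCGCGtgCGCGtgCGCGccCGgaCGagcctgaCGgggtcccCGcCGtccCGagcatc
The *Pcgf6* window held 22 CpGs and the *Cbx7* window 33, against a median of 7 over 32851 promoter windows of the same length. Across the 8 genes, counting the first window listed for each, CpGs ranged from 9 in *Phc1* to 37 in *Ring1*, with a median of 26.5. All 8 lay above the median of all windows, and the 3 genes that fell (*Cbx7*, *Pcgf5* and *Phc1*) covered most of that range, with 33, 34 and 9.

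Of the 10 subunit genes, 2 rose in the KO-labelled libraries (*Pcgf6* and *Rybp*), 3 fell (*Cbx7*, *Pcgf5* and *Phc1*) and 5 did not pass an adjusted p of 0.05 in DESeq2. With chromosome medians removed 0 rose and 3 fell, and the calls of *Rybp*, *Pcgf5* and *Phc1* depended on single libraries, as given below. Over all 17710 genes tested, 32.3% passed that threshold, 16.4% higher and 15.8% lower. Genes at or above 300 normalized counts on average, as all 10 subunit genes were, numbered 9883, and 46.3% of them passed, so the 5 of 10 called here is close to the share of genes of like depth. None of the 10 reached the thresholds of the study, a 2-fold change with an adjusted p under 0.001, which 4.51% of all genes tested did (1.36% higher and 3.15% lower). That count was 0 in edgeR too, and at an unadjusted p of 0.05 with no minimum fold 7 of the 10 passed, as did 39.6% of all genes tested and 55.1% of those at or above 300 normalized counts. The median log2 fold change of the 10 genes, KO-labelled over WT, was 0.084 (0.027 without WT replicate 1), against 0.0049 over all genes tested and 0.044 over those at or above 300 normalized counts. Between single pairs of a WT and a KO-labelled library that median had an SD of 0.047. In 8 of the 10 genes the libraries of the 2 groups did not overlap, which was so for 70.2% of all genes tested. Raw counts of these genes ran from 419 to 15858 per library.

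**Figure D1:**
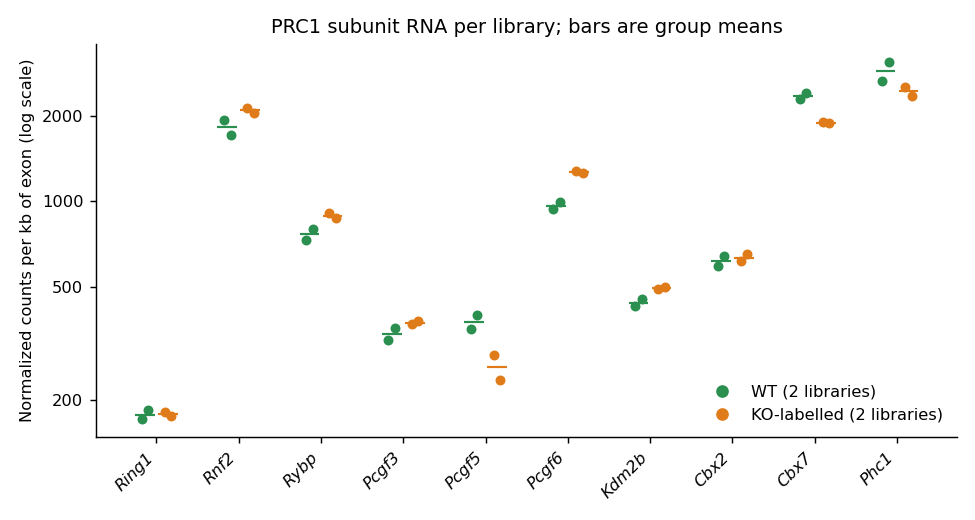
Normalized counts per kb of exon (log axis) of the 10 PRC1 subunit genes in each of the 4 libraries; points are libraries and bars are group means. The KO-labelled points of *Rnf2*, *Rybp*, *Pcgf3*, *Pcgf6* and *Kdm2b* lie above both WT points. Those of *Pcgf5*, *Cbx7* and *Phc1* lie below, and those of *Ring1* and *Cbx2* overlap WT.

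The catalytic subunits did not pass the test. *Rnf2* encodes RING1B, the main H2A ubiquitin ligase of mESCs, and lies on chr1:153316536-153347953 (ENSMUSG00000026484.7, minus strand). Its normalized counts were 5856 and 5182 in WT and 6456 and 6191 in the KO-labelled libraries, so the groups did not overlap. The log2 fold change was 0.20 ± 0.083 (SE, n = 2 against 2), with a 95% interval of 0.034 to 0.36 and a DESeq2 adjusted p of 0.0549. This value crossed the threshold with upper-quartile size factors (adjusted p = 0.0223) and without WT replicate 1 (adjusted p = 0.0307). *Ring1*, its paralogue on chr17:34157737-34161625 (ENSMUSG00000024325.8, minus strand), had 556 and 598 normalized counts in WT and 589 and 571 in the KO-labelled libraries, both of which lay between the WT values. Its log2 fold change was 0.0070 ± 0.15 (SE), with an interval of -0.29 to 0.30, so changes up to about that size were not detectable at this spread. Per kb of exon, *Rnf2* made up 91.9% and 90.3% of the summed *Ring1* and *Rnf2* level in WT and 92.2% and 92.1% in the KO-labelled libraries. *Rnf2* was thus the predominant ligase transcript in all 4 libraries.

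*Rybp*, whose protein stimulates the ligase and defines variant PRC1, lies on chr6:100178560-100237435 (ENSMUSG00000072872.2, minus strand). It had 3268 and 3557 normalized counts in WT and 4052 and 3894 in the KO-labelled libraries, and the groups did not overlap. The log2 fold change was 0.22 ± 0.085 (SE, n = 2 against 2; DESeq2 adjusted p = 0.0344), a rise of 16.4%. This call was lost when any 1 of the 4 libraries was left out, with adjusted p from 0.0652 to 0.346, and with the median change of its chromosome removed (adjusted p = 0.164). The counts of *Rybp* are also uncertain, since a copy at 95% identity or more exists elsewhere in the genome for 99.9% of its exonic bases. The longest, on chr13:66108511-66112968, matched over 4459 bases at 99.4% identity and overlaps the gene *Gm6910*, which held 12, 20, 30 and 52 counts in WT 1, WT 2, KO-labelled 1 and KO-labelled 2. *Rybp* made up 78.0% and 78.2% of the summed *Rybp* and *Yaf2* level per kb in WT, and 82.9% and 82.4% in the KO-labelled libraries.

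PCGF subunits, which set the identity of each complex, moved in different directions. *Pcgf6* lies on chr19:47108109-47125380 (ENSMUSG00000025050.6, minus strand) and had 3834 and 4051 normalized counts in WT against 5207 and 5126 in the KO-labelled libraries. Both KO-labelled values were above both WT values. Its level was 31.0% higher, a log2 fold change of 0.39 ± 0.079 (SE, n = 2 against 2; DESeq2 adjusted p = 7.36e-06). The call held whichever library was left out, with adjusted p from 0.000977 to 0.00819. Chromosome 19 as a whole was higher, however: the median log2 fold change of its 457 genes with a mean of at least 50 normalized counts was 0.38, the highest of the 20 chromosomes. With the median of each chromosome removed, the log2 fold change of *Pcgf6* was 0.0067 (adjusted p = 0.968), so *Pcgf6* did not differ detectably from the median of its chromosome.

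*Pcgf5* lies on the same chromosome, at chr19:36453557-36530682 (ENSMUSG00000024805.8, plus strand), and moved the other way. Its normalized counts were 609.9 and 685 in WT and 495 and 404 in the KO-labelled libraries. Both KO-labelled values were below WT, and the gap between the 2 KO-labelled values was of the same order as the gap between the groups. The level fell by 30.7%, with a log2 fold change of -0.53 ± 0.17 (SE, n = 2 against 2; DESeq2 adjusted p = 0.00695). The call was lost without WT replicate 1 (adjusted p = 0.052), without WT replicate 2 (0.225) and without KO-labelled replicate 2 (0.241). Set against the median of chromosome 19, the fall was larger, with a log2 fold change of -0.91 (adjusted p = 5.71e-07). *Pcgf3*, which shares its complex type with *Pcgf5* and lies on chr5:108890251-108935995 (ENSMUSG00000033623.7, plus strand), had 3105 and 3427 normalized counts in WT and 3548 and 3611 in the KO-labelled libraries. Those groups did not overlap, but the difference did not pass the test, with a log2 fold change of 0.13 ± 0.087 (SE), an interval of -0.039 to 0.30 and an adjusted p of 0.268.

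Within the family of 6 *Pcgf* genes, the shares of 4 genes did not overlap between the groups. The levels of 70.2% of all genes tested did not overlap either. Shares in a family depend on one another, so they are not directly comparable with levels. *Pcgf6* was the most abundant per kb of exon, at 32.2% and 32.7% of the family sum in WT and 35.7% and 37.4% in the KO-labelled libraries. *Pcgf5* accounted for 12.2% and 13.1% in WT and for 8.06% and 7.01% in the KO-labelled libraries. *Pcgf3* lay between 10.4% and 11.8% in all 4 libraries. Among the paralogues outside the 10 genes, *Pcgf2*, of canonical PRC1, took 16.9% and 19.2% in WT and 24.4% and 21.4% in the KO-labelled libraries, and its own level rose (log2 fold change 0.56 ± 0.12, adjusted p = 1.82e-05). *Bmi1*, the alternative to *Pcgf2* in canonical complexes, took 6.37% and 5.45% in WT and 2.76% and 2.61% in the KO-labelled libraries. Its level fell (log2 fold change -0.92 ± 0.16, adjusted p = 2.54e-07), although 60.3% of its exonic bases have a close copy and its counts are uncertain. No test was made of the shares, and *Pcgf1*, counted in the sum, has close copies of 76.3% of its exonic bases. With the longest transcript in place of the union of exons, *Pcgf5*, *Pcgf6*, *Pcgf2* and *Bmi1* separated in the same direction, and *Pcgf3* separated too, at 10.9% and 11.5% in WT against 9.89% and 10.8% in the KO-labelled libraries.

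**Figure D2:**
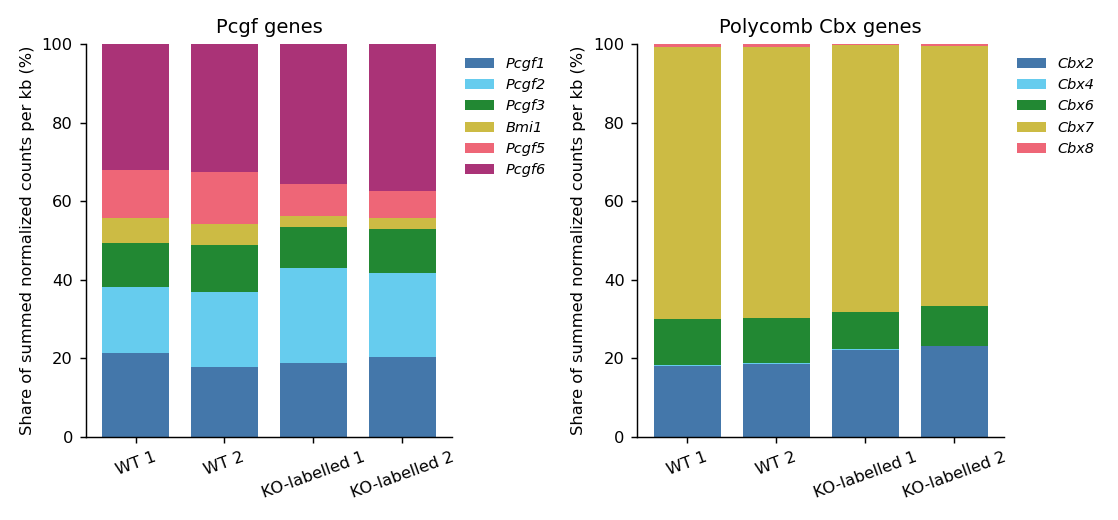
Share (%) of each gene in the summed normalized counts per kb of exon, in each library, for the 6 *Pcgf* genes (left) and the 5 Polycomb *Cbx* genes (right). *Pcgf5* narrows from 12.2% and 13.1% in WT to 8.06% and 7.01% in the KO-labelled libraries, and *Cbx2* widens from 18.0% and 18.5% to 22.1% and 23.0%.

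*Kdm2b* encodes the PRC1.1 subunit that binds unmethylated CpG islands through a zinc finger, and lies on chr5:123320677-123465089 (ENSMUSG00000029475.11, minus strand). Normalized counts were 5054 and 5369 in WT and 5796 and 5924 in the KO-labelled libraries, without overlap. The log2 fold change of 0.17 ± 0.076 (SE, n = 2 against 2), with an interval of 0.019 to 0.32, did not pass (DESeq2 adjusted p = 0.0770), and passed only with upper-quartile size factors (adjusted p = 0.0234). A copy of 13.6% of its exonic bases, and opposite-strand overlaps with *A930024E05Rik* over 199 bases and *Orai1* over 7 bases, leave a small part of its counts uncertain.

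Among canonical subunits, *Cbx7* and *Phc1* fell and *Cbx2* did not pass the test. *Cbx7*, the main chromodomain subunit of undifferentiated mESCs, lies on chr15:79746237-79801549 (ENSMUSG00000053411.9, minus strand). Its normalized counts were 8660.1 and 9078 in WT and 7197 and 7126 in the KO-labelled libraries. Both KO-labelled libraries were lower than both WT libraries by more than replicates differed. The level fell by 19.3%, with a log2 fold change of -0.31 ± 0.071 (SE, n = 2 against 2; DESeq2 adjusted p = 0.000105). This was the only call among the 10 genes that passed in all 11 alternative settings, with log2 fold changes from -0.38 to -0.27. Chromosome 15 had a median log2 fold change of 0.070, opposite in sign.

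*Phc1*, a Polyhomeotic subunit that joins complexes through its SAM domain, lies on chr6:122267749-122290579 (ENSMUSG00000040669.7, minus strand). It had 14018 and 16364 normalized counts in WT and 13398 and 12409.6 in the KO-labelled libraries. Groups did not overlap, but the 2 WT libraries lay farther apart than WT replicate 1 and KO-labelled replicate 1. The log2 fold change was -0.24 ± 0.084 (SE, n = 2 against 2; DESeq2 adjusted p = 0.0186), and the level fell by 15.1%. Without WT replicate 2 it was -0.12 (adjusted p = 0.475), and without KO-labelled replicate 2 it was -0.18 (0.290). *Cbx2*, whose protein compacts nucleosomes, lies on chr11:118884276-118892584 (ENSMUSG00000025577.7, plus strand). It had 2532 and 2730.1 normalized counts in WT and 2628 and 2770.2 in the KO-labelled libraries, which overlapped. Its log2 fold change was 0.036 ± 0.092 (SE), with an interval of -0.14 to 0.22 and an adjusted p of 0.822.

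The *Cbx* and *Phc* families were each dominated by 1 gene in every library. *Cbx7* made up 69.3% and 69.0% of the summed level per kb of the 5 Polycomb *Cbx* genes in WT and 68.0% and 66.4% in the KO-labelled libraries. *Cbx2* made up 18.0% and 18.5% in WT and 22.1% and 23.0% in the KO-labelled libraries. That larger share went with a lower sum of the family, 3296 and 3471 normalized counts per kb in WT against 2793 and 2832 in the KO-labelled libraries. *Cbx6*, which shares 18.7% of its exonic bases with *Npcd* on the same strand, fell (log2 fold change -0.51 ± 0.098, DESeq2 adjusted p = 2.17e-06) and so did *Cbx8* (-1.30 ± 0.42, adjusted p = 0.00894), although *Cbx8* was low throughout, at 95.8 and 98.1 normalized counts in WT and 31.3 and 47.0 in the KO-labelled libraries. Without WT replicate 1, WT replicate 2 or KO-labelled replicate 1 *Cbx8* was no longer called, with adjusted p from 0.157 to 0.205. *Phc1* held 92.0% to 92.8% of the summed level of the 3 *Phc* genes in all 4 libraries.

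The 10 genes spanned a range of levels. In WT, means in normalized counts per kb of exon were 2868 ± 313 (SD, n = 2) for *Phc1*, 2340.1 ± 77.9 for *Cbx7*, 1823 ± 157 for *Rnf2* and 965 ± 37.5 for *Pcgf6*. The means continued downward with 765 ± 45.8 for *Rybp*, 618 ± 32.9 for *Cbx2*, 441 ± 18.8 for *Kdm2b*, 377 ± 30.9 for *Pcgf5*, 342 ± 23.9 for *Pcgf3* and 178 ± 9.23 for *Ring1*. Only *Pcgf5* and *Pcgf3* had overlapping WT values among neighbours in this order. *Phc1* was above 93.2% of protein-coding genes on this scale and *Ring1* above 47.0%. In the KO-labelled libraries 2 neighbouring pairs changed places: *Rnf2* (2088 ± 61.9) stood above *Cbx7* (1889 ± 13.2), and *Pcgf3* (375 ± 4.68) stood above *Pcgf5* (261 ± 37.3). The order depends on the length used. With the longest transcript *Kdm2b* moved from place 7 to place 5, *Pcgf3* (424) stood above *Pcgf5* (398) in WT already, and *Cbx7* (2114) stayed above *Rnf2* (2088) in the KO-labelled libraries. Both exchanges thus hold with the union of exons alone.

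**Figure D3:**
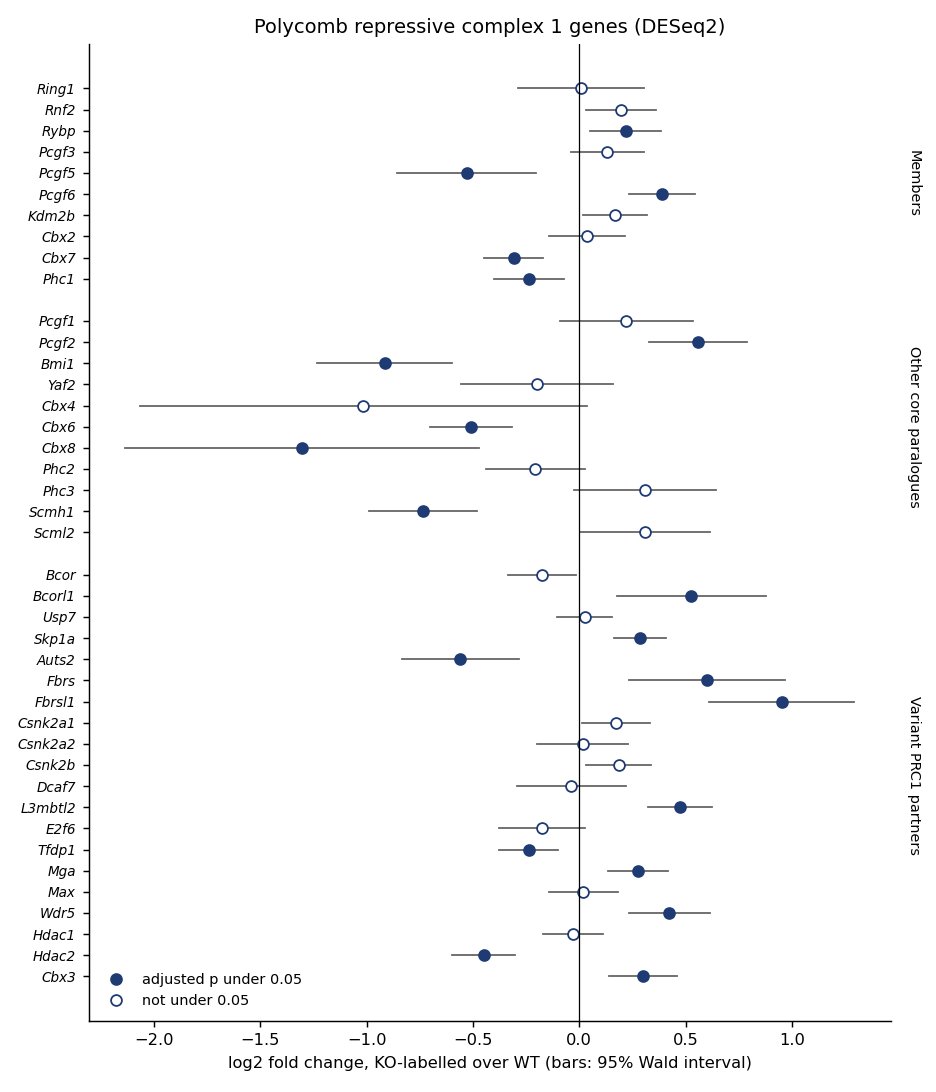
DESeq2 log2 fold change (KO-labelled over WT) with 95% Wald intervals for the 10 subunit genes, 11 other core paralogues and 20 variant PRC1 partners; filled points passed an adjusted p of 0.05. Intervals of the 10 genes lie between -0.86 and 0.54 on the log2 scale, and *Cbx8* and *Bmi1* among the other paralogues lie farther to the left.

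In the rest of PRC1 the shares of called genes were near those of expressed genes in general. Of 11 other core paralogues, 1 rose (*Pcgf2*) and 4 fell (*Cbx8*, *Bmi1*, *Scmh1* and *Cbx6*), with a median log2 fold change of -0.21. That is 45.5% called, against 32.3% of all genes tested and 46.3% of those at or above 300 normalized counts. *Scmh1*, a Polycomb protein that binds PHC subunits, had 1181 and 1381 normalized counts in WT and 792 and 749 in the KO-labelled libraries (log2 fold change -0.73 ± 0.13, DESeq2 adjusted p = 1.7e-07). Of 20 partners of variant PRC1, 8 rose and 3 fell (55.0% called), with a median of 0.099, and 4 rose without WT replicate 1, WT replicate 2 or KO-labelled replicate 1. Among partners of PCGF3 and PCGF5, *Fbrsl1* (log2 fold change 0.95 ± 0.17) and *Fbrs* (0.60 ± 0.19) rose while their paralogue *Auts2* fell (-0.56 ± 0.14). *Fbrs* no longer passed without WT replicate 1, WT replicate 2 or KO-labelled replicate 1 (adjusted p from 0.0774 to 0.249), nor *Auts2* without WT replicate 2 (0.111) or KO-labelled replicate 2 (0.0512). Of the PRC1.6 partners, *L3mbtl2* rose (0.47 ± 0.077, adjusted p = 1.06e-08), with 17.2% of its exonic bases under *Chadl* on the other strand. The deacetylase *Hdac2* fell (-0.45 ± 0.075), but lies on chromosome 10, whose median was -0.35, and did not pass with chromosome medians removed (adjusted p = 0.345). *Bcorl1*, of PRC1.1, rose (0.53 ± 0.18, adjusted p = 0.013), but not when any 1 library was left out (0.0521 to 0.233). Of 5 genes that remove the H2A mark, *Asxl1* alone passed (0.33 ± 0.092, adjusted p = 0.00193; copies of 12.8%), and it was lost without WT replicate 2 (0.122) or KO-labelled replicate 1 (0.137), and with chromosome medians removed (0.0603).

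PRC2, which writes the mark that CBX proteins read, was compared as the neighbouring complex. Of its 11 subunit genes 7 rose and 2 fell (81.8% called, against 32.3% of all genes tested and 46.3% of those at or above 300 normalized counts), with a median log2 fold change of 0.23. *Ezh2*, the PRC2 methyltransferase, had 4326 and 4389 normalized counts in WT and 8464 and 8359.9 in the KO-labelled libraries (log2 fold change 0.95 ± 0.072, DESeq2 adjusted p = 5.27e-37). *Mtf2* (0.80 ± 0.078), *Suz12* (0.65 ± 0.20, copies of 15.4%), *Jarid2* (0.33 ± 0.067) and *Ezh1* (0.25 ± 0.10) also rose, and *Rbbp4* fell (-0.34 ± 0.063). *Suz12* was lost without KO-labelled replicate 1 (adjusted p = 0.168) and *Ezh1* without any 1 library (0.0908 to 0.408). With chromosome medians removed *Suz12* (0.0584), *Ezh1* (0.592) and *Rbbp4* (0.101) did not pass. No test of the difference between the complexes was made. With chromosome medians removed, 3 PRC2 genes rose and 0 fell, and leaving out 1 library gave 4 to 6 and 1. Of the 2 genes linking *Xist* to PRC1, *Hnrnpk*, whose protein bridges the RNA and the PCGF3 and PCGF5 complexes, had a log2 fold change of 0.10, and *Xist* one of -0.45. Both are uncertain, *Hnrnpk* by copies of 53.5% of its exonic bases and *Xist* by *Tsix* over 11.2% on the other strand. Neither passed in DESeq2, and 0 of the 2 did so at an unadjusted p of 0.05, while edgeR called *Xist* lower.

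**Figure D4:**
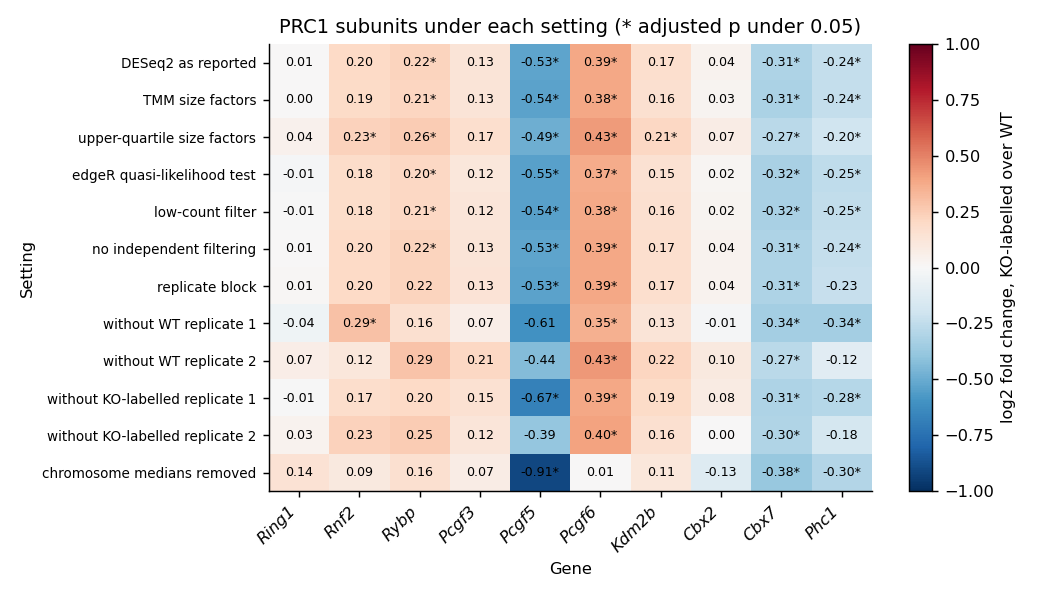
Log2 fold change (KO-labelled over WT) of each of the 10 subunit genes as reported and in 11 alternative settings; colour gives the value and * an adjusted p under 0.05. *Cbx7* carries * in every line, and *Pcgf6* in every line but that with chromosome medians removed, where its value is 0.0067.

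Genes that PRC1 is known to repress were read as its targets, in 2 lists. Of 12 germline genes known as targets of PRC1.6, the complex of PCGF6, 6 rose and 0 fell in DESeq2, with a median log2 fold change of 0.38. Of all genes tested 16.4% rose, and of those at or above 300 normalized counts 25.7% rose and 46.3% were called in either direction. At an unadjusted p of 0.05 the counts of germline genes were 6 and 1, and edgeR gave the same. *Hormad1*, a meiotic chromosome axis protein, had 1286 and 1221 normalized counts in WT and 3515 and 3052 in the KO-labelled libraries (log2 fold change 1.39 ± 0.10, DESeq2 adjusted p = 2.27e-38). *Slc25a31*, a testis ADP/ATP carrier, had 127 and 152 in WT and 343 and 309 in the KO-labelled libraries (1.22 ± 0.24, adjusted p = 3.19e-06). *Stag3*, the meiotic cohesin subunit, had 1881 and 1589.9 in WT and 3607 and 3213 in the KO-labelled libraries (0.98 ± 0.11). *Zcwpw1* (1.12 ± 0.12), *Taf7l* (0.92 ± 0.18) and *Mael* (0.71 ± 0.12) completed the 6. Over all 12 genes the groups separated upward in these 6 and downward in 3, and overlapped in 3. Of all genes tested 70.2% did not overlap. All 6 calls held in all 11 alternatives. *Hormad1* is uncertain by its copies, over 57.4% of exonic bases, and *Zcwpw1* by an overlap of 18.4% with *Pilra* on the other strand.

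**Figure D5:**
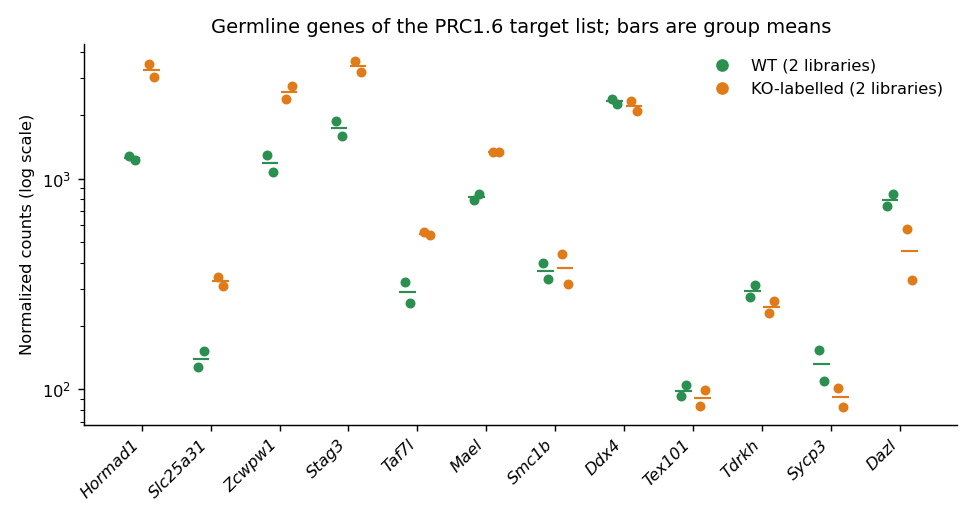
Normalized counts (log axis) of the 12 germline genes of the PRC1.6 list in each of the 4 libraries; points are libraries and bars are group means. The 6 genes at the left passed the test and have both KO-labelled points above both WT points.

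PRC1.6 reaches its targets through MGA and MAX, which bind the E-box CACGTG, and through E2F6 with its partner, for which the letters GCGGGAA were searched. Both strands were read in the same 300-base windows, and neither motif contains the other. CACGTG occurred in 7.15% of all 32851 promoter windows, GCGGGAA in 4.6% and both in 0.457%. Of the 12 germline promoters 7 held CACGTG, 6 held GCGGGAA and 5 held both. Both motifs contain a CpG, and the germline windows held a median of 24 CpGs against 7 over all windows. The shares over all windows are thus not matched for CpG content. Of the 8 subunit genes with a promoter, 0 held either motif in the first window, and a further window of *Pcgf5* held GCGGGAA once. CACGTG is not particular to the germline list, since 6 of the 8 other core paralogues with a promoter held it too (1 held GCGGGAA and 0 both). Of the 12 developmental regulators with a promoter, from the list described below, 2 held CACGTG, 2 held GCGGGAA and 0 both. Motifs and calls did not go together throughout: *Zcwpw1* rose with neither motif in its windows, while *Ddx4* (log2 fold change -0.075) and *Sycp3* (-0.52), named here after their values were seen, held both and did not pass, the latter with 52.2% of its exonic bases under *Chpt1* on the other strand. The 3 germline promoters below are the other ones with both motifs, chosen because their genes rose; capitals mark the motifs, in either orientation.
*Hormad1* promoter, chr3:95559427-95559726, + strand: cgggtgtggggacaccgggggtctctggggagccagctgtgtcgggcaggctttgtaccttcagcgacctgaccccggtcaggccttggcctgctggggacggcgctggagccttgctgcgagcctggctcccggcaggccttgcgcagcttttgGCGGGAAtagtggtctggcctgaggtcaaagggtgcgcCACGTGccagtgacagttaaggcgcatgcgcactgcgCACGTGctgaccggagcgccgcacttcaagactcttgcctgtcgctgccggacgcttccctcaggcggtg
*Slc25a31* promoter, chr3:40708621-40708920, + strand: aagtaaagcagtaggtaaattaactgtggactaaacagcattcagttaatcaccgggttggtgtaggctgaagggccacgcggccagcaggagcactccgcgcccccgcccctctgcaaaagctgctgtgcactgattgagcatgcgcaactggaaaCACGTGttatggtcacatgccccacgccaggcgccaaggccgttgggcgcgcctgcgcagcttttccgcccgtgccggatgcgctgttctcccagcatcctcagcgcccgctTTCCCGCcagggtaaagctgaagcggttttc
*Stag3* promoter, chr5:138280259-138280558, + strand: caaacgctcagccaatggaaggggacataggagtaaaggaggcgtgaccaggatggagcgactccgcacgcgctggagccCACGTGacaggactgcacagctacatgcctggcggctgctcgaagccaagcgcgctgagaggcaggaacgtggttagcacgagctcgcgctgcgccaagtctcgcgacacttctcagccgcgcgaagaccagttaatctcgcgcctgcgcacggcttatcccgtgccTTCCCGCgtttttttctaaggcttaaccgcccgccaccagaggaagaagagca
In *Hormad1* the E-box occurs at 2 places and in *Slc25a31* and *Stag3* at 1. A match is a run of letters and no measure of binding. The germline list was written from general knowledge of PRC1.6, but with earlier results of these data known, so its counts are a description.

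Developmental regulators that Polycomb complexes occupy in mESCs made up the other list. Of its 19 genes 13 had an adjusted p, of which 0 rose and 7 fell in DESeq2, also at an unadjusted p of 0.05, and edgeR gave 0 and 8. Of all genes tested 15.8% fell, and of those at or above 300 normalized counts 20.6%. The median log2 fold change was -1.14. *Olig2* fell most (-6.68 ± 0.23, DESeq2 adjusted p = 7.07e-185), from a WT mean of 2357 to 22.9 normalized counts. *T*, the mesoderm factor Brachyury, fell from 401 to 30.0 (-3.74 ± 0.28), *Pax6*, which shares 27.9% of its exonic bases with *Elp4* on the other strand, from 450.3 to 89.4 (-2.33 ± 0.23) and the cell cycle inhibitor locus *Cdkn2a* from 556 to 120.2 (-2.21 ± 0.21). *Cdx2* (-1.85 ± 0.55) fell but was lost without any 1 of the libraries (adjusted p from 0.0515 to 0.166). *Gata4* (-1.13 ± 0.31), also one of the primitive endoderm markers given above, was lost without WT replicate 2 (0.159) or KO-labelled replicate 2 (0.0666). A gene that passed the filter on low values only through its WT libraries had to be lower in the other group, so the 7 of 13 is a description. *Cbx7*, *Pcgf5* and *Phc1* fell by less than 1 on the log2 scale beside these genes, and whether the changes are linked was not tested.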

How the data were processed

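RNA of 2 WT and 2 *Spen* KO clone 2 mESC libraries was sequenced after removal of ribosomal RNA, with a stranded kit and paired reads of 75 bases. The authors mapped reads to mm9 with STAR and counted them with featureCounts over GENCODE vM1, and deposited raw counts per gene for each library. Tool versions, the strand setting and the treatment of multi-mapping reads are not given in the sources used here, and the labels and the methods name different instruments. Copies (at least 75 bases at 95% identity) or overlapping genes that cover over 10% of the exonic bases of a gene named in the text are therefore given with it.

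Groups and replicate numbers came from the sample titles. Counts were fitted with DESeq2 1.42.0 in R 4.3.3 over all genes (group alone, default size factors, Wald test, Benjamini-Hochberg adjustment over 17710 genes); 11918 genes had no count. Size factors were 0.754, 0.918, 1.15 and 1.28 and divide the counts into normalized counts. All 37310 identifiers matched the annotation. On simulated counts DESeq2 called 67% of changes of 0.5 and 98% of changes of 1 on the log2 scale. False calls numbered 4 among 14080 genes for WT against KO. The simulation gave every gene the same spread beyond counting noise and changed 100 genes at each size. These rates need not hold for the real counts. edgeR 4.0.16, other size factors, filters, a replicate block, single libraries left out and chromosome medians removed were the alternatives. The subunit genes and all lists were chosen with earlier results of these data known. Every subunit gene and, of the other lists, the called genes with the largest changes, at most 6 in a list, were described. *Pou5f1*, *Nanog*, *Col1a1*, *Twist2* and *Lum* stand for the marker lists, and paralogues for their families. Promoters came from RefSeq windows of GRCm38.p6, without conversion of coordinates.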

Additional observations from a re-analysis of the deposited data

How the results depend on the processing

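Over the 10 subunit genes and 11 alternatives, 88 of 110 values kept their direction and side of the threshold. Of the others 13 lost and 3 gained a call, and 6 changed sign. For *Spen* and the called genes with the largest changes in the other lists, 355 values kept both and 41 lost a call. The sign changes were those of uncalled genes: *Ring1* (-0.0084 in edgeR, -0.0056 with a minimum of 10 counts in 2 libraries, -0.040 to 0.066 leaving out 1 library) and *Cbx2* (-0.13 with chromosome medians removed, -0.012 to 0.096 leaving out 1 library). The count of subunit genes that rose, 2, became 4 with upper-quartile size factors, 1 with the replicate block, 0 with chromosome medians removed, 1 at an adjusted p of 0.001 with no minimum fold, and 1 to 2 leaving out 1 library. The count that fell, 3, became 1 at 0.001 and 1 to 3 leaving out 1 library, and the median log2 fold change of all 10 genes ran from 0.027 (without WT replicate 1) to 0.12. In edgeR 2 other core paralogues rose (*Scml2* was added, chosen after its values were seen) and *Xist* (1 gene) fell. *Dazl* (chosen likewise) was the 1 germline gene that fell in edgeR, with the replicate block, and without KO-labelled replicate 1 (0 to 1 over the left-out libraries). Leaving out 1 library, variant partners gave 4 to 7 higher and 1 to 2 lower, H2A deubiquitination 0 to 1 higher, and PRC2 4 to 6 higher and 1 lower. With the replicate block PRC2 had 3 higher and 1 lower, and with chromosome medians removed 3 and 0. Over all genes the block gave 1857 higher, against 2909, and leaving out 1 library 1563 to 1815 higher and 1572 to 1737 lower, with the lone library of a group assumed to vary like the other group. Same-numbered libraries share only a number: their deviations correlated at -0.0177 over 13306 genes, and beside the block losses of *Rybp* (adjusted p = 0.168) and *Phc1* (0.114) no subunit gene changed its call. The cause of these changes was not tested. Intervals cover the spread between 2 libraries a group only.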
